A study of Mus musculus with 2 samples.

Results

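OXPHOS-high barcodes were droplets of a hippocampal Cajal-Retzius (CR) cell suspension in which the nuclear genes of oxidative phosphorylation made up an unusually large share of the RNA. A barcode was included when it held at least 2000 unique molecular identifiers (UMIs, each counting 1 captured RNA molecule), when mitochondrially encoded genes took at most 8% of them, when it held at least 1 UMI of *Reln* or *Trp73*, and when 98 nuclear OXPHOS genes made up at least 1.8% of the UMIs outside mitochondrially encoded and ribosomal protein genes. The rule found 81 barcodes in the control library and 33 in the knockout library, 114 of 1394 barcodes past the limits on UMIs and mitochondrial share. That was 8.08% of the control barcodes (81 of 1003; exact Clopper-Pearson 95% interval 6.46 to 9.94%) and 8.44% of the knockout barcodes (33 of 391; 5.88 to 11.6%). Because the OXPHOS share itself chose these barcodes, their differences from the 917 control and 352 knockout barcodes below 1.8% (the rest) are given as a description, without a test, and OXPHOS genes are not reported. Intervals throughout cover counting error only.

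CR cells are early-born glutamatergic neurons that lie along the hippocampal fissure, secrete the extracellular glycoprotein reelin and die in large numbers during postnatal development. The respiratory chain of mitochondria is assembled from subunits encoded in the nucleus and a small set encoded by mitochondrial DNA, so that both genomes contribute to ATP synthesis. *Pcp4* encodes a small calmodulin-binding peptide, *Reln* encodes reelin and *Trp73* encodes a p53-family transcription factor that marks CR cells of the cortical hem.

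Each library was made from the hippocampi of 4 littermates at P14 that were pooled before sorting, and cells were not assigned to single animals here. Control mice were *ΔNp73-Cre; Cic flox/+; tdT* (3 males and 1 female) and knockout mice were *ΔNp73-Cre; Cic flox/flox; tdT* (2 males and 2 females). Both groups thus carried the Cre driver, which follows a promoter of *Trp73* and is active in the CR lineage, and the tdTomato reporter, and the control mice carried 1 floxed allele of *Cic*, the transcriptional repressor Capicua. Tissue was dissociated with papain, and DAPI-negative, tdTomato-positive cells were sorted and captured in droplets with 3′ end counting. The control matrix held 16336796 UMIs and the knockout matrix 6777071, and no barcode past the limits was shared between them. With 1 library per genotype, no difference between genotypes was tested. Only 5 control and 6 knockout barcodes had an OXPHOS share of at least 1.8% without a UMI of *Reln* or *Trp73*, and these were not counted among the OXPHOS-high barcodes.

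OXPHOS-high barcodes held CR cell markers, though the rule itself had required *Reln* or *Trp73*. *Reln* had a median of 58 UMIs per control OXPHOS-high barcode (range 1 to 232) and 61 per knockout one (2 to 277), against 48 and 47 in the rest. *Trp73* had medians of 5 and 6 UMIs, against 2 and 3. Both genes were detected in 77 of 81 control and 31 of 33 knockout OXPHOS-high barcodes, where the rule had required a UMI of either. At least 9 of 12 CR markers, *Reln* and *Trp73* included, were found in 62 and 25 of them. Fewer than 6 were found in 3 of 81 and 3 of 33. The median was 10 of 12 markers in either library, against 8 in the rest, where barcodes held fewer UMIs. *Reln* (chromosome 5, 21884454 to 22344702 on GRCm38) nevertheless took a smaller share of the RNA than in the rest. Its level, as UMIs scaled to a total of 1000000 outside mitochondrially encoded and ribosomal protein genes (CPM), was 5761 in control OXPHOS-high barcodes and 8574 in the rest, a ratio of 0.672 (exact 95% interval for a ratio of Poisson counts, 0.653 to 0.691), and the knockout ratio was 0.663 (0.634 to 0.692).

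The other CR markers divided into those above and those below their level in the rest. The neuronal transcription factor *Nhlh2* had ratios of 3.68 in control and 3.94 in knockout, the calcium-binding protein gene *Calb2* 6.81 and 6.83, and the LIM homeobox gene *Lhx1* 2.03 and 2.06. These 3 were the only ones of 11 CR markers with enough UMIs to compare that were at least 2-fold higher in both libraries, and none was 2-fold lower. *Ndnf*, which encodes a secreted neurotrophic factor, had ratios of 0.806 and 0.836, the carbonic anhydrase-related gene *Car10* 0.542 and 0.654, and the chemokine receptor gene *Cxcr4* 0.601 and 0.562. *Trp73* (chromosome 4, 154056253 to 154140208) was near its level in the rest, at 1.19 (1.08 to 1.31) and 1.02 (0.875 to 1.18). In barcodes of 20 to 100 UMIs, the *Trp73* level was 823 CPM in control and 854 CPM in knockout. Both values were above the 547 and 497 CPM of OXPHOS-high barcodes. Summed over the 12 markers, CR genes made up 1.28% of the UMIs counted in control OXPHOS-high barcodes, 1.61% in the rest and 0.555% in barcodes of 20 to 100 UMIs, with knockout shares of 1.27%, 1.53% and 0.592%.

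*Pcp4* (chromosome 16, 96467606 to 96525793) was higher in OXPHOS-high barcodes than in the rest, with a median of 24 UMIs per control barcode (range 0 to 64) and 21 per knockout barcode (1 to 76) against 1 in the rest of either library. The *Pcp4* level was 1875 CPM against 216 CPM in control (ratio 8.68, 8.06 to 9.35) and 1650.1 CPM against 173 CPM in knockout (9.53, 8.42 to 10.8). The ranges per barcode overlapped, since single barcodes of the rest reached 31 and 15 UMIs. *Pcp4* was also abundant outside cells: barcodes of 20 to 100 UMIs (29040 control and 75813 knockout barcodes), which sample free RNA of the suspension, had a *Pcp4* level of 3282 CPM in control and 2927 CPM in knockout, above that of the OXPHOS-high barcodes. After every barcode was thinned to 2000 UMIs, 86.4% of control and 90.9% of knockout OXPHOS-high barcodes held a *Pcp4* UMI, against 30.9% and 23.9% of the rest. The shares before thinning were 98.8% and 100%, against 61.0% and 56.5%, and 19.9% and 9.61% of the barcodes of 20 to 100 UMIs (medians 89 and 44 UMIs) held one. By CPM, *Pcp4* was thus not higher in these barcodes than in the free RNA. Counted as molecules, OXPHOS-high barcodes held means of 21.7 (control) and 21.1 (knockout) *Pcp4* UMIs. The rest held 1.33 and 1.13, and the barcodes of 20 to 100 UMIs held 0.246 and 0.117.

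The OXPHOS share had a median of 2.77% in control (1.82 to 6.97%) and 2.69% in knockout (1.82 to 6.82%) OXPHOS-high barcodes, against 0.745% and 0.799% in the rest. The 3 control barcodes just inside the limit had OXPHOS shares of 1.82, 1.88 and 1.89% and held 1, 3 and 2 *Pcp4* UMIs. The 3 just outside had shares of 1.79, 1.71 and 1.69% and held 2, 1 and 0 *Pcp4* UMIs. In the knockout, the nearest inside were at 1.82, 1.86 and 1.89% with 4, 7 and 1 *Pcp4* UMIs, and the nearest outside at 1.73, 1.67 and 1.62% with 12, 1 and 1. Near the limit, *Pcp4* thus did not divide the barcodes into those inside and those outside. Between 1.8 and 2.1% lay 12 control and 5 knockout OXPHOS-high barcodes, and between 1.5 and 1.8% lay 19 and 7 barcodes of the rest.

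OXPHOS-high barcodes were deeper than the rest and differed in other shares of their RNA. Their median depth was 13609 UMIs in control (2098 to 25231) and 14341 in knockout (2051 to 33453), against 6092 and 6405.5 in the rest. Transcripts that are retained in the nucleus (8 RNAs, among them *Malat1* and *Meg3*) made up a median of 3.47% and 3.77% of the UMIs counted, against 8.08% and 8.07%. The nuclear-retained share was below the median of the rest in 80 of 81 control and 33 of 33 knockout OXPHOS-high barcodes. Cytosolic ribosomal protein genes made up a median of 8.15% and 7.31% of all UMIs, against 1.14% and 0.978%, and were above the median of the rest in 81 of 81 and 32 of 33. Mitochondrially encoded genes had medians of 1.65% and 2.03% of all UMIs, below the 3.29% and 3.86% of the rest.

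**Figure D1:**
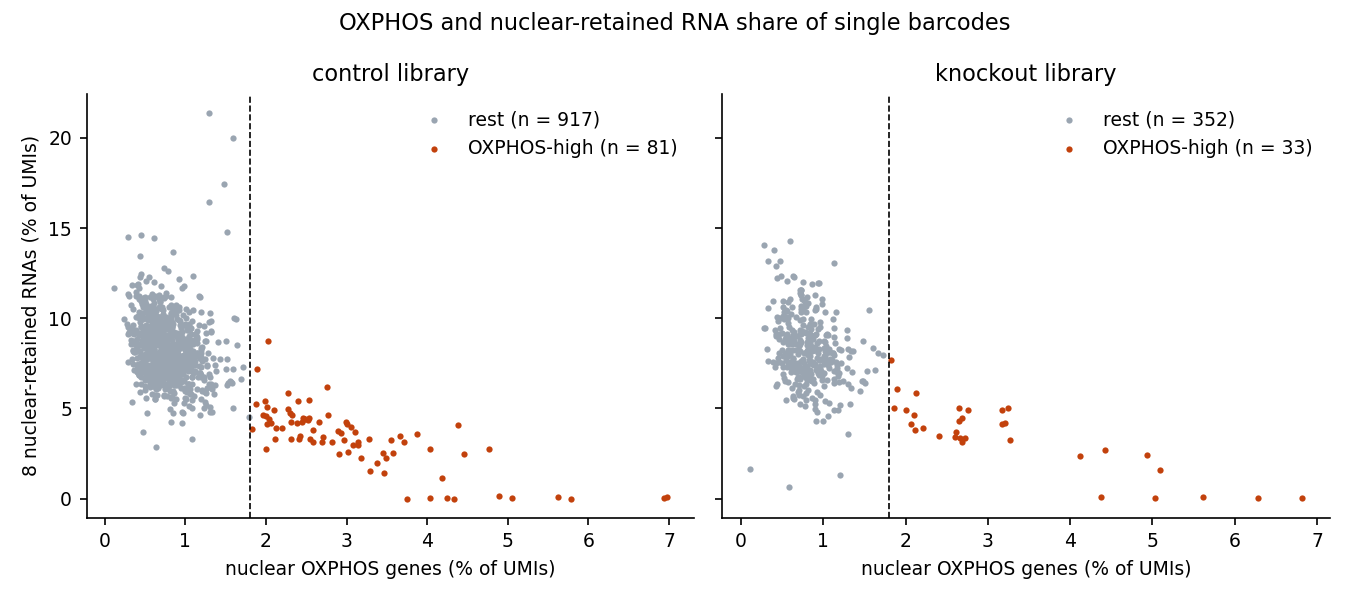
Share of nuclear OXPHOS genes (horizontal axis, % of UMIs outside mitochondrially encoded and ribosomal protein genes) against the share of 8 nuclear-retained RNAs (vertical axis, %), 1 point per OXPHOS-high barcode or barcode of the rest, with the threshold of 1.8% as a line. OXPHOS-high barcodes had median nuclear-retained shares of 3.47% (control) and 3.77% (knockout), against 8.08% and 8.07% in the rest, and 10 control and 5 knockout OXPHOS-high barcodes lay below 1%.

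Of 5081 genes outside the OXPHOS, mitochondrially encoded and ribosomal protein genes with at least 100 UMIs in each library, 594 (11.7%) were at least 2-fold higher and 211 (4.15%) at least 2-fold lower in OXPHOS-high barcodes in both libraries. These shares belong to the contrast that chose the barcodes and carry no test. The counts were 1264 and 639 with at least 20 UMIs per gene, a filter that lets more genes in. Against rest barcodes matched on depth they were 235 and 45, but fewer genes reached 100 UMIs there. Of the 594 higher genes, 541 (control) and 562 (knockout) stayed 2-fold higher against the matched barcodes. Of the 211 lower genes, 160 and 151 stayed 2-fold lower. With median-ratio scaling, 111 genes were lower. The ratio of OXPHOS-high barcodes to the rest lay on the same side of 1 in both libraries for 85.3% of the genes. The median gene had a log2 ratio of -0.24 in control and -0.20 in knockout, so that values for single genes and lists are best read against that shift.

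The genes with the highest ratios were ranked by whichever end of the interval lay closer to 1. *Tmsb10* and *Tmsb4x*, which encode thymosins that bind actin monomers, had levels of 1201 and 2233 CPM in control OXPHOS-high barcodes against 100.4 and 227 CPM in the rest, with ratios of 11.97 (10.8 to 13.3) and 9.84 (9.17 to 10.6). Their knockout ratios were 14.8 (12.02 to 18.3) and 14.3 (12.6 to 16.3). *Stmn1*, encoding the tubulin-binding protein stathmin, had ratios of 8.75 and 8.47. The metal-binding metallothionein gene *Mt3* had ratios of 11.6 and 10.3, and the selenoprotein gene *Selenow* had 10.0 and 10.5. Against rest barcodes matched on depth, the control ratios of *Tmsb10*, *Tmsb4x* and *Selenow* were lower, at 7.03, 6.51 and 6.63.

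The same ranking named further genes. *Chchd2*, encoding a protein of the mitochondrial intermembrane space, had ratios of 8.30 and 9.78. *Atp6v1g1*, a subunit of the vacuolar proton pump, had 9.07 and 9.82, and the spliceosome core gene *Snrpd2* had 8.87 and 10.9. *Sh3bgrl3*, encoding a small thioredoxin-like protein, had 9.79 and 13.6, and the predicted protein-coding gene *Gm11808*, only 504 bases long in the genome, had 12.9 and 15.98. Against rest barcodes matched on depth, *Atp6v1g1* was at 5.01 in control and *Snrpd2* at 19.9 in knockout. *Pcp4* belonged to the same group. All of these except *Selenow* had a higher CPM in barcodes of 20 to 100 UMIs than in OXPHOS-high barcodes of both libraries.

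The 12 genes with the lowest ratios were mostly non-coding. By annotation, 7 were antisense and 3 long intergenic non-coding RNAs. *4930445B16Rik*, a long intergenic non-coding RNA, had 7.48 CPM in control OXPHOS-high barcodes against 80.5 CPM in the rest (ratio 0.0929, 0.0371 to 0.193) and a knockout ratio of 0.157. The antisense gene *Gm48678* had ratios of 0.109 and 0.173, and *Gm10475* had 0.311 and 0.255. *Mir124a-1hg*, the host transcript of the neuronal microRNA miR-124, had 0.273 and 0.308. Other genes of this group were *Gm48742* (0.258 and 0.168), *B430010I23Rik* (0.241 and 0.0466), *Gm20404* (0.231 and 0.0551), *Gm12064* (0.275 and 0.195), *Gm26749* (0.277 and 0.239) and *Gm48091* (0.2498 and 0.280). The protein-coding members were the imprinted, retrotransposon-derived *Rtl1* (0.248 and 0.234) and *AC149090.1* (0.361 and 0.402), which is annotated on an unplaced scaffold. Against rest barcodes matched on depth, *B430010I23Rik* was at 0.389 in control, and *4930445B16Rik* and *Gm48742* were at 0.100 and 0.365 in knockout. The strand used for counting is not stated in the sources used here, so antisense genes and the genes they overlap are uncertain.

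**Figure D2:**
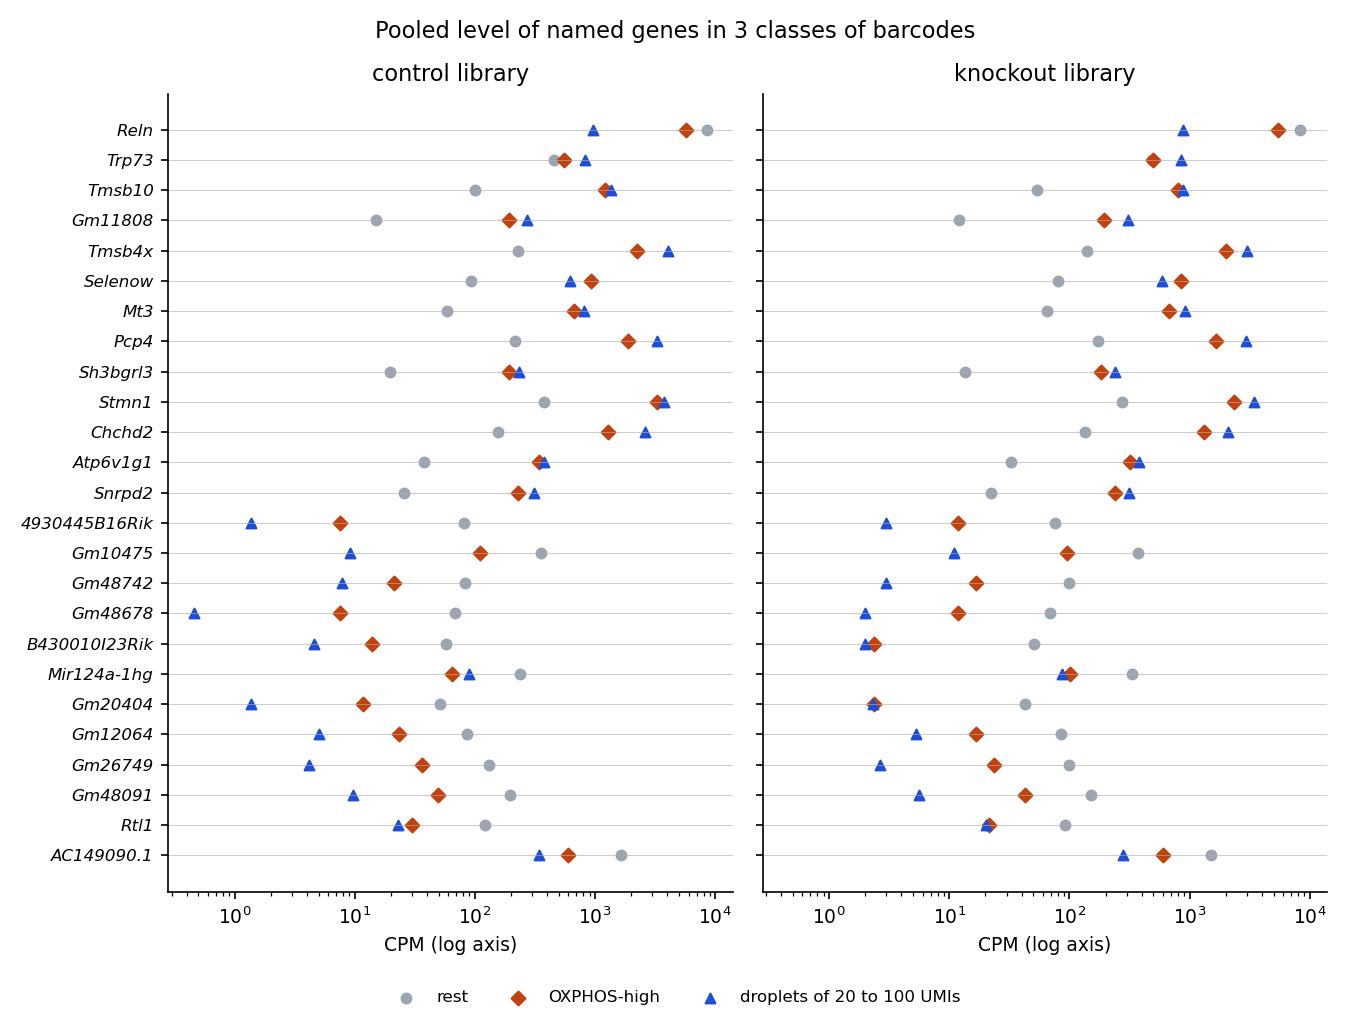
Levels (CPM, log axis) of *Reln*, *Trp73* and 11 of the highest and 12 of the lowest genes in the rest, in OXPHOS-high barcodes and in barcodes of 20 to 100 UMIs, for each library. The higher genes mostly stepped up from the rest through OXPHOS-high barcodes to the faint barcodes (*Pcp4*, 216, 1875 and 3282 CPM in control), while *Reln* stepped down (8574, 5761 and 957 CPM).

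Mitochondria were represented unevenly in OXPHOS-high barcodes. Genes of mitochondrial import, carriers and related proteins, which bring proteins and metabolites into the organelle, were 2-fold higher for 11 of 18 list members compared, beside 11.7% of all genes, among them *Tomm6* (9.06 and 8.37), *Tomm7* (6.78 and 6.85), *Timm8b* (6.87 and 8.79) and the ATP and ADP exchanger *Slc25a4* (4.55 and 3.93). All 18 were above 1 in both libraries, and the median log2 ratio of the list was 1.93 in control and 1.45 in knockout. Of the tricarboxylic acid cycle, 4 of 13 genes were 2-fold higher (*Mdh2*, 4.28 and 3.14; *Suclg1*, 3.16 and 4.15; *Pdha1*, 2.08 and 2.07; *Pdhb*, 2.12 and 2.06) and none was 2-fold lower, with a median log2 ratio of 0.92 and 0.95. Glycolysis, which supplies pyruvate to that cycle, had 9 of 15 genes 2-fold higher, such as *Tpi1* (5.14 and 5.07), *Gapdh* (4.41 and 3.66) and *Aldoa* (3.91 and 3.66). These counts, too, belong to the contrast that chose the barcodes.

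The genes that mitochondrial DNA itself encodes had lower CPM values than in the rest. All 13 protein-coding genes of mitochondrial DNA were below 1 in both libraries, with *mt-Atp6* at 0.580 and 0.538, *mt-Cytb* at 0.701 and 0.613, and *mt-Nd6* at 0.428 and 0.380. Together they took 1.81% of all UMIs in control OXPHOS-high barcodes against 3.16% in the rest, and 2.11% against 3.79% in knockout. Counted as molecules, they were more abundant, with means of 233 UMIs per barcode against 204 in control and 300 against 261 in knockout. The limit of 8% on the mitochondrial share applied to both sides of this comparison. Regulators of mitochondrial biogenesis were not higher: the coactivator *Ppargc1a* had ratios of 0.531 and 0.798, the transcription factor *Nrf1* 0.505 and 0.817, and the nuclear receptor *Esrrg* 0.555 and 0.546, and the other 7 genes of that list had too few UMIs.

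The machinery of translation was higher nearly throughout. Cytosolic ribosomal protein genes, selected by their symbols, were 2-fold higher for 79 of 84 genes compared, and the 5 others are ribosomal S6 kinase genes that share the prefix. They made up 7.997% of all UMIs in control OXPHOS-high barcodes, 1.25% in the rest and 11.9% in barcodes of 20 to 100 UMIs, with 7.35%, 1.02% and 10.6% in knockout. Of 14 translation factors, 13 were 2-fold higher, beside 11.7% of all genes, including the elongation factor *Eef1a1* (5.40 and 6.62), the initiation factor *Eif1* (6.93 and 7.95), *Naca*, which binds nascent chains (7.86 and 7.92), and the growth-associated *Tpt1* (7.33 and 9.97). Mitochondrial ribosomal protein genes had 10 of 17 genes 2-fold higher.

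Genes of protein degradation, redox defence and iron storage were higher in part. Of 31 proteasome subunits compared, 16 were 2-fold higher, beside 11.7% of all genes, led by the catalytic core genes *Psmb6* (5.27 and 4.45) and *Psmb4* (5.19 and 4.58), with a list median log2 ratio of 1.41 and 1.04. Ubiquitin genes were 2-fold higher for 9 of 11, with *Ubb* at 5.88 and 4.44. Antioxidant genes were also 2-fold higher for 9 of 11, such as *Park7* (6.49 and 6.41), *Prdx5* (5.45 and 6.87), thioredoxin *Txn1* (6.11 and 4.83) and superoxide dismutase *Sod1* (4.03 and 4.50). Both ferritin chains, *Fth1* (5.02 and 5.05) and *Ftl1* (6.63 and 6.77), were 2-fold higher. Vacuolar proton pump subunits split, with 6 of 17 genes 2-fold higher and 6 below 1 in both libraries.

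The lists on cell death and stress held few genes with enough UMIs to compare, and their counts stand beside the 11.7% of all genes that were 2-fold higher. In the caspase and apoptosome list, only *Cycs*, which encodes the respiratory carrier cytochrome c that also nucleates the apoptosome, was 2-fold higher among 6 genes compared (8.91, 6.91 to 11.5, and 7.35, 5.00 to 10.9), whereas *Apaf1*, the scaffold of the apoptosome, had ratios of 0.698 and 0.660. In the Bcl2 family, the pro-apoptotic *Bax* (2.73 and 2.43) and the mitophagy receptor *Bnip3l* (4.86 and 5.46) were 2-fold higher among 6 genes, while *Bcl2l1* was at 1.15 and 1.98 and *Mcl1* at 1.10 and 1.36. *Bcl2* had too few UMIs for the list count, with ratios of 0.788 (0.393 to 1.44) and 2.18 (1.14 to 3.99). Among p53 targets, 1 of 6 was 2-fold higher (*Phlda3*, 5.01 and 5.75). The stress response factor *Atf4* (2.44 and 2.94) was the only gene of the integrated stress response with enough UMIs.

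Immediate early genes, which neurons and other cells induce within minutes of stimulation, were above 1 in both libraries for 10 of 12 compared, and 3 of the 12 were 2-fold higher. Taken 1 library at a time, 38.0% of all genes in control and 39.8% in knockout were above 1. The share above 1 in both libraries was therefore at most 38.0%, and 11.7% were 2-fold higher in both. *Fos* had a level of 1617 CPM in control OXPHOS-high barcodes, 359 CPM in the rest and 2015 CPM in barcodes of 20 to 100 UMIs, with ratios to the rest of 4.50 and 4.33. *Jund* (4.82 and 4.14) and *Egr1* (2.99 and 3.95) were 2-fold higher as well. The 2 genes not above 1 in both libraries were *Npas4* (0.765 and 1.25) and *Nr4a3* (0.651 and 0.887). Of the chaperones, 3 of 9 were 2-fold higher in both libraries: mitochondrial *Hspe1* (5.34 and 5.05) and *Hspd1* (2.21 and 2.32), and cytosolic *Hspa8* (2.89 and 2.42).

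Of 6 calmodulin and calcium-binding genes compared, 5 were 2-fold higher, beside 11.7% of all genes, among them *Calm2* (3.87 and 3.87) and *Calm3* (5.35 and 5.17), which encode the calmodulin that PCP4 binds, *Calb2* and *Pcp4*. The kinase subunit gene *Camk2b* was at 0.988 and 1.03, and the other 7 genes of that list had too few UMIs. Cytoskeletal genes were 2-fold higher for 10 of 18, with the tubulin gene *Tubb2b* at 4.79 and 3.26 and the growth cone gene *Gap43* at 3.64 and 4.09, but the dendritic *Map2* was at 0.743 and 0.914. Of 14 genes of synaptic vesicle release, 7 were above 1 and 7 below 1 in both libraries, and 2 were 2-fold higher, a share near that of all genes, among them *Vamp2* (3.75 and 3.67), and the calcium sensor *Syt1* was at 0.763 and 0.760. None of 10 neuropeptide and granin genes was past 2-fold in both libraries. Of 4 genes compared that mark other CR clusters of these libraries, 3 were below 1 in both libraries, as were 53.7% of all genes. They were *Gabrg3*, a GABA-A receptor subunit gene and the most abundant of them (0.554 and 0.737), *Alkal2*, a receptor ligand gene (0.361 and 0.677), and the kainate receptor gene *Grik1* (0.694 and 0.168). The neuropeptide gene *Cck* was at 1.06 and 1.60, and *Chst8* had too few UMIs.

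Genes of receptors, channels, adhesion and guidance were mostly below 1, as were 53.7% of all 5081 genes in both libraries. Their counts of 2-fold lower genes stand beside the 4.15% of all genes. Of 22 adhesion genes, none was 2-fold higher, 2 were 2-fold lower and 21 were below 1 in both libraries, with *Cntnap2*, a neurexin relative of the axonal membrane, at 6018 CPM against 11906 CPM in control (0.505, 0.492 to 0.519) and a knockout ratio of 0.516. The median log2 ratio of the adhesion list was -0.76 and -0.79, beside the -0.24 and -0.20 of all genes. Glutamate receptors had 11 of 12 genes below 1 in both libraries and 1 of 12 was 2-fold lower, with values such as those of *Gria2* (0.510 and 0.625) and *Grm3* (0.435 and 0.352). Potassium channels had 18 of 24 below 1 and 3 above 1, with *Kcnd3* (0.292 and 0.265), *Kcnmb2* (0.337 and 0.238), *Kcnj6* (0.248 and 0.459) and *Kcnma1* (0.489 and 0.479) 2-fold lower. Of voltage-gated sodium and calcium channels, 0 of 16 were 2-fold higher and 2 were 2-fold lower (*Cacna2d3* and *Cacna1b*, the latter at 0.462 and 0.420), and 1 of 5 GABA-A receptor subunits was 2-fold lower (*Gabra2*, 0.480 and 0.366). Sodium pump subunits had 0 of 5 past 2-fold. Guidance genes were below 1 for 23 of 25, among them the Slit receptors *Robo1* (0.574 and 0.689) and *Robo2* (0.534 and 0.630), and 2 of the 25, the semaphorin genes *Sema4d* (0.434 and 0.402) and *Sema5a* (0.446 and 0.463), were 2-fold lower.

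Nuclear-retained RNAs were lower too, with a median log2 ratio of -1.12 and -0.92. All 7 compared were below 1 in both libraries. *Malat1* (chromosome 19, 5795690 to 5802672), the most abundant, had 30679 CPM in control OXPHOS-high barcodes, 68908 CPM in the rest and 7126 CPM in barcodes of 20 to 100 UMIs, with ratios to the rest of 0.445 (0.440 to 0.451) and 0.470 (0.462 to 0.479). *Snhg11* had 0.461 and 0.482, *Meg3* 0.474 and 0.529, and *Mirg* 0.394 and 0.200. Counted as molecules, the difference was smaller: a control OXPHOS-high barcode held a mean of 354 *Malat1* UMIs and a barcode of the rest 424.

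**Figure D3:**
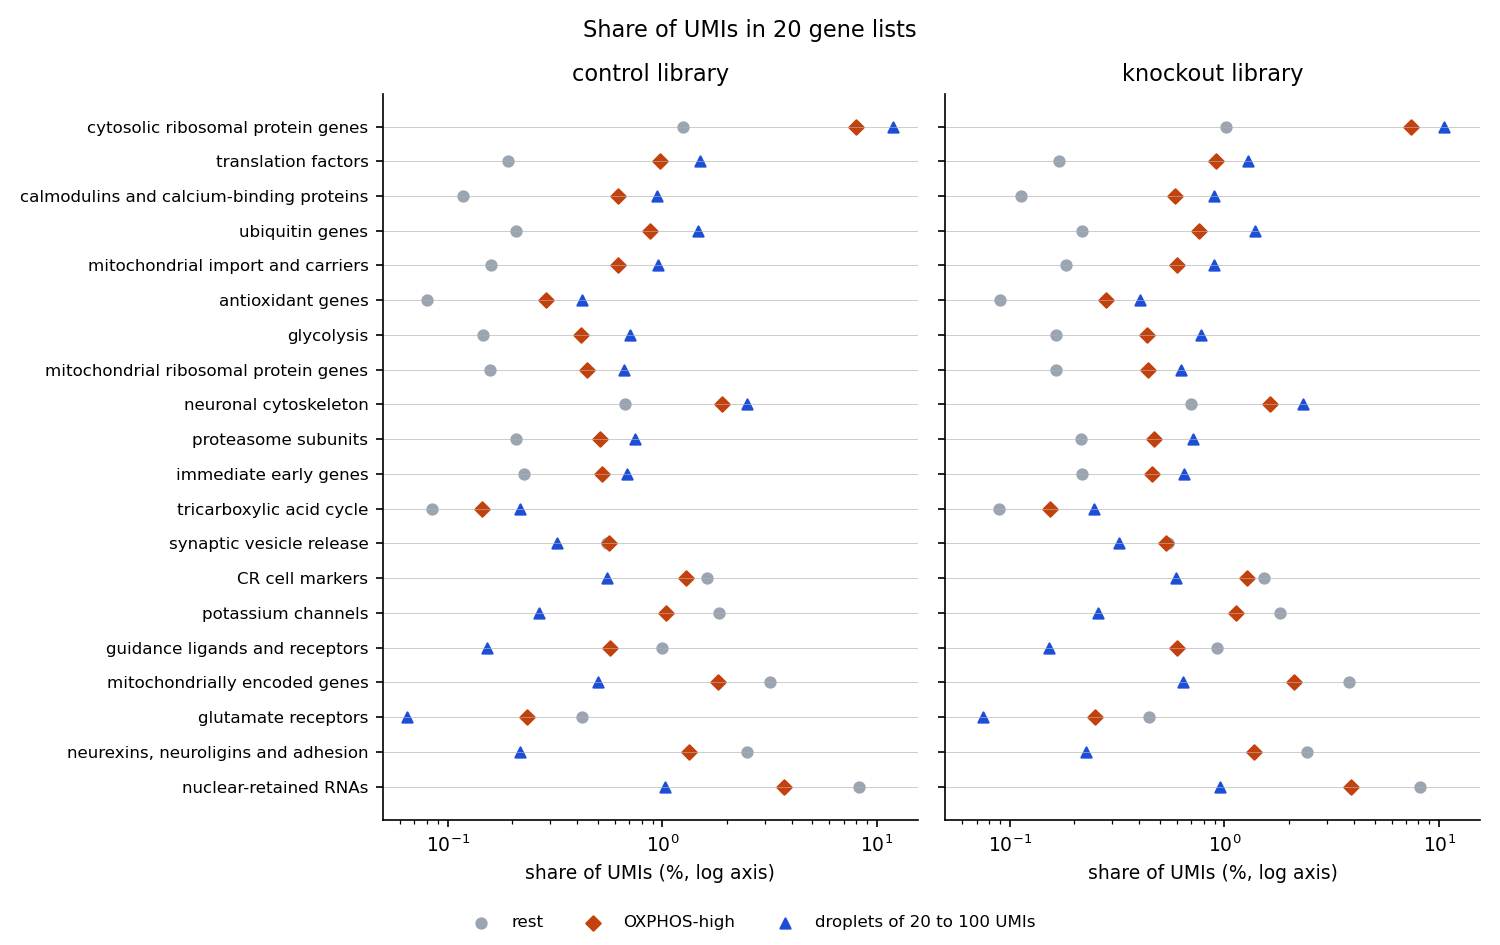
Share of UMIs (%, log axis) taken by 20 gene lists in the rest, OXPHOS-high barcodes and barcodes of 20 to 100 UMIs of each library. OXPHOS-high barcodes lay between the other classes for most lists, for example at 7.997% between 1.25% and 11.9% for cytosolic ribosomal protein genes and at 3.68% between 8.20% and 1.03% for nuclear-retained RNAs in control.

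The ratio of OXPHOS-high barcodes to the rest varied with the length of a gene in the genome, introns included. The 144 genes under 3163 bases had a median log2 ratio of 1.88 in control and 1.73 in knockout, and 88 of them were 2-fold higher in both libraries. The 336 genes over 316228 bases had a median of -0.84 and -0.64, and 0 were 2-fold higher while 27 were 2-fold lower. The bins between them stepped down in order, at 0.82, 0.21, -0.27 and -0.60 in control and 0.68, 0.17, -0.22 and -0.47 in knockout. Across the 5081 genes, which share the same libraries and differ in abundance, the Spearman correlation between ratio and length was -0.547 and -0.450. Of the biotypes, 107 antisense genes had the lowest median log2 ratio (-1.49 and -1.42; 67 were 2-fold lower and 1 higher), 60 long intergenic non-coding RNAs had -0.90 and -0.73, and 4862 protein-coding genes had -0.22 and -0.17.

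**Figure D4:**
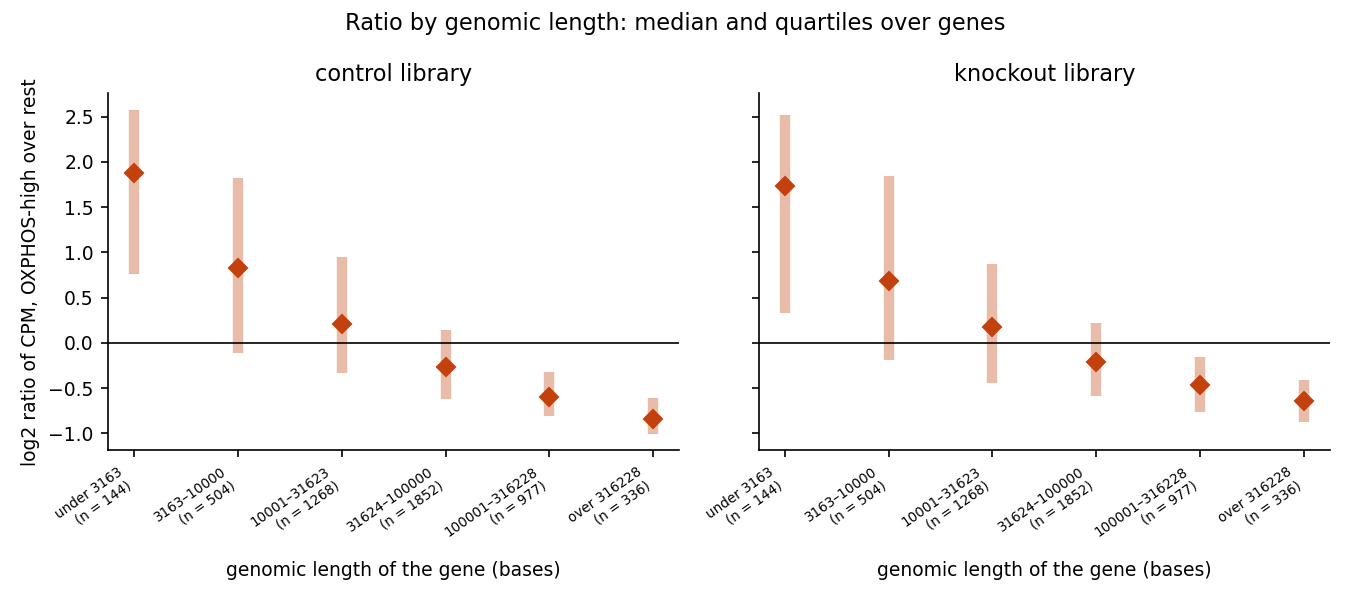
Log2 ratio of OXPHOS-high barcodes to the rest (vertical axis) for genes in 6 bins of genomic length (horizontal axis, bases), as median and quartiles over genes, for each library. The median went from 1.88 in the shortest bin to -0.84 in the longest in control, and from 1.73 to -0.64 in knockout.

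Compared gene by gene with the free RNA, OXPHOS-high barcodes lay in an intermediate position. For 3959 of the 5081 genes (77.9%) in control and 3673 (72.3%) in knockout, the CPM in OXPHOS-high barcodes was between that of the rest and that of the barcodes of 20 to 100 UMIs. All 594 of the 2-fold higher genes were also higher in the faint barcodes than in the rest in both libraries. Of the 211 lower genes, 210 (control) and 209 (knockout) were also lower there. Both comparisons share the rest of the same library, so this agreement carries no test. The shares of all 5081 genes higher or lower in the faint barcodes than in the rest are not given here. These counts therefore cannot be read against all genes. Across these genes, the Spearman correlation between the CPM of OXPHOS-high and faint barcodes was 0.803 and 0.772, against 0.635 and 0.610 between OXPHOS-high barcodes and the rest, and 0.257 and 0.256 between the rest and the faint barcodes. When the faint barcodes and the rest were taken from the other library, the correlation between both ratios to the rest was 0.860 and 0.783. Levels in the rest were close between libraries for genes such as *Reln* (8574 and 8265 CPM) and *Cntnap2* (11906 and 11288 CPM). These ratios were therefore not independent either, and their correlation carries no test. With the mean counts of a faint barcode subtracted from every barcode, the control *Pcp4* ratio to the rest was 10.5. Among the ratios of named genes and lists, 126 then stayed within their intervals and 18 moved past them. The part of free RNA in these levels was not otherwise tested.

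Other genes were more abundant in OXPHOS-high than in faint barcodes. By the ranking of their ratio to the faint barcodes, the leading genes were *Cntn5* (13.9 and 11.8), which encodes an adhesion protein of the contactin family, *Lingo2* (10.4 and 12.3), the growth factor gene *Nrg3* (9.94 and 11.6), *Cntnap2* (9.50 and 9.21), the phosphodiesterase gene *Pde10a* (18.1 and 12.3) and *Hs6st3* (10.2 and 14.6), a sulfotransferase gene. Each of these 6 genes spans over 316228 bases and was lower in OXPHOS-high barcodes than in the rest. At the other end were *Snhg9* (0.0964 and 0.108), *AY036118* (0.197 and 0.187), *Cdk8* (0.296 and 0.241), *2810403D21Rik* (0.0876 and 0.218), *Ezh2* (0.242 and 0.283) and *Gm10563* (0.253 and 0.290). *AY036118* was above its level in the rest, with ratios of 1.37 (1.33 to 1.405) and 1.13 (1.08 to 1.18). Against rest barcodes matched on depth, its ratios were 1.68 and 1.64. *Cdk8* had ratios to the rest of 1.29 and 0.955.

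A small set of 28 genes was higher in OXPHOS-high barcodes than in both the rest and the faint barcodes, beyond the intervals in both libraries, and 17 were lower than in both. *Selenow* had 921 CPM in control OXPHOS-high barcodes, 91.9 CPM in the rest and 616 CPM in the faint barcodes, and 845, 80.7 and 586 CPM in knockout. *Cib2*, encoding a calcium- and integrin-binding protein, had ratios of 6.22 and 7.17 to the rest and of 1.33 and 1.44 to the faint barcodes. The antiproliferative gene *Btg1* had 2.11 and 1.96 to the rest and 1.42 and 1.66 to the faint barcodes. *Pkig*, an inhibitor of protein kinase A (2.16 and 2.45), the signal peptidase gene *Spcs1* (1.70 and 1.61), *Micu3*, a regulator of mitochondrial calcium uptake (1.38 and 1.55), and the secreted olfactomedin gene *Olfm1* (1.98 and 1.68) were also in the set, with ratios to the rest given. These genes were named after their values were seen. Against rest barcodes matched on depth, *Pkig* was at 5.47 in knockout.

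Ratios were also computed against barcodes of more similar depth. When each OXPHOS-high barcode was set against 1 barcode of the rest with the nearest number of UMIs (81 control and 33 knockout pairs; the matched barcodes had medians of 10350 and 11636 UMIs and so remained shallower), the *Pcp4* ratio was 6.74 in control and 10.1 in knockout. Of the 594 higher genes, 541 and 562 stayed 2-fold higher against the matched barcodes, and 160 and 151 of the 211 lower genes stayed 2-fold lower. The Spearman correlation across genes between the ratios with all and with matched barcodes was 0.945 and 0.904. After thinning to 2000 UMIs, OXPHOS-high barcodes held a median of 1279 and 1299 genes, against 1203 and 1200.5 in the rest.

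Counted as molecules, most genes were more abundant in an OXPHOS-high barcode than in a barcode of the rest. The mean number of UMIs per barcode was higher for 87.9% of the 5081 genes in control and 89.4% in knockout, with a median ratio of 1.58 and 1.71. The 594 genes that were 2-fold higher in share had a median ratio of UMIs per barcode of 6.63 and 6.84, and the 211 lower genes had 0.708 and 0.755. *Reln* had a mean of 66.5 UMIs per control OXPHOS-high barcode against 52.8 in the rest, *Cntnap2* 69.5 against 73.3 and *Pcp4* 21.7 against 1.33. For *Reln*, a lower share thus went with a higher number of molecules.

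OXPHOS-high barcodes also varied among themselves. Within the 81 control and 33 knockout barcodes, those with a larger OXPHOS share had a smaller nuclear-retained share (Spearman correlation -0.771 and -0.745) and a larger ribosomal share (0.695 and 0.779). The *Pcp4* share was larger as well (0.456 and 0.467), the *Reln* share smaller (-0.455 and -0.458), and the barcodes shallower (-0.226 and -0.499 with total UMIs). These shares come from the same UMIs of single barcodes and are given without a test. In the rest, the correlation between OXPHOS and nuclear-retained share was -0.237 and -0.269, and that with the ribosomal share was 0.514 and 0.449. The correlation with the mitochondrial share was 0.398 and 0.301 among OXPHOS-high barcodes and 0.492 and 0.569 in the rest.

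At the far end were 10 control and 5 knockout OXPHOS-high barcodes with nuclear-retained shares under 1%, a division made after the values were seen. Their median nuclear-retained share was 0.0398% and 0.0464%, against 3.83% and 4.11% in the other 71 and 28. They were shallower, with medians of 3838 and 4241 UMIs against 14069 and 15644.5, and held fewer CR transcripts, with a median of 8 *Reln* UMIs in either library and 6 and 5 of the 12 CR markers against 10. Their OXPHOS shares were 4.98% and 5.61%, their ribosomal shares 15.0% and 17.5%, and their mitochondrial shares 4.64% and 4.99%, against 1.62% and 1.92% in the others. Without these 15 barcodes, the *Pcp4* ratio was 8.58 and 9.19, and 575 genes were 2-fold higher and 181 lower in both libraries.

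Markers of other cell types were sparse in OXPHOS-high barcodes. GABAergic neuron markers had 2 UMIs in control and 0 in knockout with 8 of 10 genes at 0, among them *Gad1* and *Gad2*; the choroid and ependymal list had 1 *Ttr* UMI in each library with its 5 other genes at 0; and the microglial list had 33 and 13 UMIs, with *Csf1r*, *C1qa* and 3 others at 0. Pyramidal neuron markers had 72 and 42 UMIs, with *Mpped1* the most abundant and *Slc17a7*, *Neurod6* and 2 others at 0. The lists for oligodendrocytes (22 and 11 UMIs, led by *Cnp*, with *Mog* and *Mal* at 0), their precursors (30 and 20, nearly all *Cspg4*, with *Pdgfra*, *Olig2* and *Sox10* at 0) and endothelial cells (66 and 44, mostly *Itm2a*, with *Cldn5* and *Flt1* at 0) were low as well, as were those for mural cells (76 and 41, all *Rgs5*), fibroblasts (1 and 3, *Col1a1*) and erythrocytes (4 and 4, *Alas2*). Markers of immature neurons and progenitors had 46 and 9 UMIs, with *Sox2* and *Top2a* at 0. Granule neuron markers had 895 and 374 UMIs, of which 844 and 358 were of *Pdzd2*, with *Prox1* at 7 and 2. The astrocyte list had 207 and 37 UMIs, 0.0221% and 0.00876% of the UMIs counted against 0.0109% and 0.0170% in the rest. Its most abundant gene was *Apoe*, a lipid carrier, and 91 of the 99 control *Apoe* UMIs were in 1 barcode with 2098 UMIs, 6.97% OXPHOS share, 1 *Reln* UMI and 0 *Trp73* UMIs.

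Barcodes with 3 or more markers of another cell type numbered 5 of 81 (6.17%) and 2 of 33 (6.06%) OXPHOS-high barcodes, against 2.07% and 2.27% of the rest. Doublet scores at or above the 95th percentile of their library were found for 8 (9.88%) and 4 (12.1%) OXPHOS-high barcodes, against 5.45% and 8.24% of the rest, and their intervals overlapped. A UMI of a Y-linked gene was present in 55 (67.9%) and 20 (60.6%) OXPHOS-high barcodes, against 72.0% and 50.9% of the rest, and at least 3 *Xist* UMIs without a Y-linked one in 14 (17.3%) and 9 (27.3%), against 22.03% and 45.5%. The part of these features in the levels above was not tested.

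The comparison of genotypes asked how deletion of *Cic* in the CR lineage altered expression, here within OXPHOS-high barcodes. *Cic* itself had 70 UMIs in control and 22 in knockout OXPHOS-high barcodes, a ratio of 0.696 (0.410 to 1.14), but 3′ counts can lie outside the deleted part of the gene and so do not check the deletion. *Etv4* (chromosome 11, 101769742 to 101785371), an ETS transcription factor gene that CIC is known to repress, had 0 UMIs in 81 control and 24 UMIs in 33 knockout OXPHOS-high barcodes, at least 17.7-fold higher with the control set at 3 counts over the group, and 31.3-fold higher in the rest (17.8 to 60.0). Its 24 UMIs were spread over 10 barcodes with at most 4 in 1. The barcodes of 20 to 100 UMIs had 0.459 CPM of *Etv4* in control and 48.4 CPM in knockout, against 56.8 CPM in knockout OXPHOS-high barcodes. *Etv5*, of the same family, had 14 and 19 UMIs, a ratio of 3.01 (1.43 to 6.48), and its level of 44.98 CPM in knockout OXPHOS-high barcodes was below the 51.0 CPM of the knockout faint barcodes.

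The growth factor gene *Fgf1* and 2 non-coding genes had higher counts in knockout OXPHOS-high barcodes. *Fgf1* had 3 and 13 UMIs (ratio 9.60, 2.64 to 52.5), of which 5 were in 1 knockout barcode with 33453 UMIs, and without it the ratio was 6.36 (1.53 to 37.2). The non-coding *9630014M24Rik* had 0 and 23 UMIs (at least 17.0-fold higher) and *Gm5820* had 0 and 12 (at least 8.86-fold higher). *Arhgap26*, farther along the same chromosome, had 24 and 17 UMIs, with a ratio of 1.57 (0.791 to 3.04) that did not exclude 1, against 1.98 (1.67 to 2.36) in the rest. *Vgf*, which encodes a secreted neuropeptide precursor, had a ratio of 6.64 (2.30 to 23.4), and *Spred1*, an inhibitor of Ras signalling, 2.88 (1.55 to 5.44). *C1ql1*, which encodes a synaptic organizer, had 2.91 (1.45 to 5.96), below the 14.4 (9.47 to 22.8) of the rest, a difference that was not tested. The *C1ql1* level was 49.7 CPM in knockout OXPHOS-high barcodes and 95.1 CPM in the knockout faint barcodes. The feedback inhibitors *Spry2* (1.28, 0.914 to 1.77) and *Dusp4* (1.503, 0.793 to 2.79) had intervals that held 1, and *Etv1*, *Spry4* and *Dusp6* had at most 3 UMIs.

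**Figure D5:**
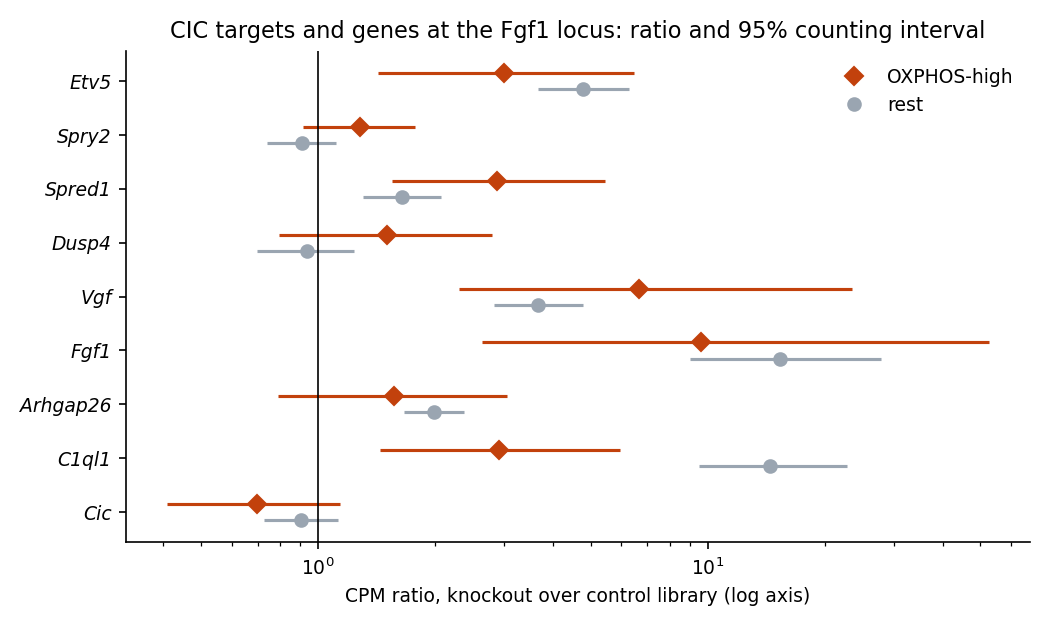
Ratio of knockout to control (log axis) with exact 95% intervals for 9 genes of the CIC list in OXPHOS-high barcodes and in the rest. *Fgf1*, *Vgf*, *Etv5*, *Spred1* and *C1ql1* had intervals above 1 in OXPHOS-high barcodes, while those of *Spry2*, *Dusp4* and *Arhgap26* held 1 and that of *Cic* ran from 0.410 to 1.14.

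Among genes with at least 50 UMIs, few ratios between the genotypes passed 2-fold in OXPHOS-high barcodes. Of 5208 genes with at least 50 UMIs in OXPHOS-high barcodes of both libraries together, 54 (1.04%) were at least 2-fold higher and 58 (1.11%) at least 2-fold lower in knockout, and the median log2 ratio was -0.02. With the minimum at 20 UMIs per gene, 304 were higher and 293 lower. In the rest, 14 of the 5208 genes (0.269%) were 2-fold higher and 4 (0.0768%) 2-fold lower in knockout, among them 3 of the 54 and 0 of the 58. In 7 of the 54 and 8 of the 58, 1 barcode held most of the UMIs in the higher library.

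Single barcodes held many of the UMIs of the genes leading by rank. *Zfp444*, a zinc finger gene, was highest in knockout (6.18, 3.83 to 10.3), but 57 of its 67 knockout UMIs were in 1 barcode, and without it the ratio was 0.964 (0.411 to 2.09). *Tmem150c*, encoding a membrane protein, had a ratio of 4.56 with 69 of 109 UMIs in 1 barcode and 1.74 (1.12 to 2.67) without it. *Atp8a1*, a lipid flippase gene, had 3.24 with 37 of 82 UMIs in 1 barcode and 1.84 (1.22 to 2.78) without it. *Penk*, which encodes the precursor of enkephalins, had 3.54 with 16 of 48 UMIs in 1 barcode and 2.43 (1.43 to 4.14) without it. In the rest, *Tmem150c* had a ratio of 2.01 (1.76 to 2.30) and *Penk* 1.94 (1.57 to 2.38). There, *Atp8a1* had 1.09 (0.952 to 1.24) and *Zfp444* 0.911 (0.684 to 1.20).

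The genes lowest in knockout rested on single barcodes as well. *Gm20468* had 118 control and 0 knockout UMIs (at least 17.8-fold lower), of which 117 were in 1 barcode, and *Gm16189* had 67 and 0 (at least 10.1-fold lower), of which 62 were in 1. The sperm ion channel gene *Catsper2* had 61 and 1 UMIs, of which 55 were in 1 barcode, with a ratio of 0.0363 that moved to 0.363 (0.00789 to 2.99) without it. *Apoe* had 99 and 8 UMIs and a ratio of 0.179, and without the barcode that held 91 of them the ratio was 2.21 (0.723 to 6.76).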

How the data were processed

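The deposited matrices held raw UMI counts per gene (32285 genes) and barcode for all barcodes, which the authors produced by aligning reads to mm10 in Cell Ranger. The version in the matrix header (Cell Ranger 4), the one in the submitters' processing notes (Cell Ranger 8.0.1, with mm39) and the one in the study's methods, which name mm10, all differ, and whether intronic reads were counted is not given in the sources used here. No cell calling or normalization had been applied.

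UMIs were summed over the barcodes of a class in each library and scaled to a total that leaves out 192 mitochondrially encoded and ribosomal protein genes (symbols with the prefixes mt-, Mrp, Rpl and Rps). OXPHOS-high barcodes held 935547 (control) and 422400 (knockout) such UMIs, the rest 5649085 and 2304796. Ratios were given exact 95% intervals from Poisson counts, and shares Clopper-Pearson intervals. A count of 0 was set to 3 counts over the group, and such a ratio is a bound. Barcodes were compared with the rest, with barcodes of 20 to 100 UMIs, after thinning to 2000 UMIs and after one-to-one matching on total UMIs. Doublets were scored with Scrublet (scanpy 1.11.5, 20 components) and kept. Gene positions came from GENCODE M21 on GRCm38, which held 99.8% of the identifiers. Python 3.11.15, numpy 2.4.6, scipy 1.17.1, pandas 2.3.3 and matplotlib 3.10.9 were used.

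Genes named were the 12 highest and 12 lowest against the rest (at least 100 UMIs per library), the 6 highest and 6 lowest against barcodes of 20 to 100 UMIs and the 4 highest and 4 lowest between genotypes (at least 50 UMIs), each ranked by the interval's end closer to 1, together with members of gene lists. Some of these genes are not reported here. The barcodes, lists and rules were chosen with earlier results of these data known. Counts for 32285 genes were also simulated from Poisson distributions, without spread between barcodes. The intervals assume such counts, so coverage near 95% was built in and spread between barcodes was not checked. The interval for OXPHOS-high over rest in control held the true ratio for 95.6% of unchanged genes past the filter. It left out 1 on the true side for 95.2% of 21 genes changed 2-fold upward and 85.7% of 21 changed 2-fold downward. For knockout over control, these were 96.3%, 88.2% and 80% (of 15 genes).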

Additional observations from a re-analysis of the deposited data

Results flagged for a closer look

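Genes named for the comparison of genotypes gave opposite directions in the libraries or classes. The differences between directions were not tested. *Apoe* had a ratio of OXPHOS-high barcodes to the rest of 9.49 in control and 0.326 in knockout, and a ratio of knockout to control of 0.179 in OXPHOS-high barcodes and 5.21 in the rest, with 91 of its 99 control UMIs in 1 OXPHOS-high barcode. *Catsper2* had ratios to the rest of 3.35 in control and 0.0728 in knockout, and ratios of knockout to control of 0.0363 in OXPHOS-high barcodes and 1.67 in the rest, with 55 of 61 control UMIs in 1 barcode. *Gm16189* had a ratio to the rest of 2.41 in control, with 62 of 67 UMIs in 1 barcode, while knockout OXPHOS-high barcodes had 0 UMIs and no ratio is given. *Tmem150c* had ratios to the rest of 0.660 in control and 1.49 in knockout, with 69 of 109 knockout UMIs in 1 barcode. *Atp8a1* had 0.443 in control and 1.32 in knockout, with 37 of 82 knockout UMIs in 1 barcode.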

How the results depend on the processing

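Across the alternatives, 150 of 178 values for the main comparisons and 2115 of 2509 others moved by less than their intervals or, for counts of genes, by less than 1.5 times. The *Pcp4* ratio stayed above 6 in every alternative run. It was 7.80 in control with an OXPHOS threshold of 1.5% (100 control barcodes), 11.0 in knockout without high doublet scores, 9.77 and 10.9 with median-ratio scaling, 6.74 in control against rest barcodes matched on depth, and 10.5 in control with free RNA subtracted. The *Reln* ratio stayed below 1, at 0.695 (control) and 0.705 (knockout) with the threshold at 1.5%, 0.653 (control) at 2.1%, 0.651 (control) without the *Reln* or *Trp73* requirement, 0.632 and 0.628 scaled to all UMIs, 0.756 and 0.759 with median-ratio scaling, 0.640 (control) as the mean of single barcodes, and 0.594 (knockout) at matched depth. *Trp73* was at 1.34 in control with median-ratio scaling.

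The counts of 2-fold higher and lower genes were 1264 and 639 with at least 20 UMIs per gene, 1658 and 3565 without a filter, and 235 and 45 against matched barcodes, where fewer genes reached 100 UMIs. With median-ratio scaling 111 were lower. Between genotypes, 304 were higher and 293 lower with at least 20 UMIs. The Spearman correlation with the faint barcodes was 0.666 in control for barcodes of 20 to 50 UMIs.

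The astrocyte share ratio in control was below 1 with at least 5000 UMIs (0.675), a mitochondrial limit of 5% (0.727), both *Reln* and *Trp73* (0.682), at least 10 *Reln* UMIs (0.706) and without barcodes with other markers (0.748). Without the *Reln* or *Trp73* requirement, the knockout astrocyte ratio was 3.60 and the choroid ratio 438.6. The granin ratio in knockout was 1.06 with median-ratio scaling and 1.08 at matched depth. The ratio of knockout to control of *Apoe* was 2.22 without barcodes with other markers, 1.94 with at least 10 *Reln* UMIs and 2.21 without its top barcode, and that of *Zfp444* was 0.964 without its top barcode. Those on other markers, *Reln* UMIs and top barcodes were chosen after seeing the data. Otherwise the cause was not tested. Scaled to all UMIs, the median log2 ratio was -0.33 and -0.27.

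No paired analysis was possible because each genotype was 1 library. The 33 knockout barcodes limit precision, genes under the count minimums were not compared, and pooled mice leave no estimate of the spread between animals.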

Other observations

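The 11 barcodes with an OXPHOS share of at least 1.8% and no *Reln* or *Trp73* UMI mostly held markers of choroid plexus or astrocytes. Of these, 8 held *Ttr*, the transthyretin gene of choroid plexus epithelium, with 125 to 1271 UMIs. In the knockout library, 2 held 79 and 108 UMIs of astrocyte markers, of which 43 and 55 were *Apoe*, and no *Ttr*. The remaining control barcode, with 2071 UMIs, held 10 UMIs of immature neuron and progenitor markers and 2 of *Pcp4*. Its kind was not established.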
